A study of Mus musculus with 2 samples.

Results

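The epidermal growth factor receptor (EGFR) ligands Areg, Ereg, Hbegf, Tgfa and Btc and the receptors Egfr, Erbb2 and Erbb3 were measured by 10x Genomics single-cell RNA sequencing in dissociated lungs carrying breast cancer metastases. These 8 genes were taken by name from the 27999 genes of the count tables. Both lungs came from female FVB/NJ mice given Met-1 mammary carcinoma cells intravenously at 10 weeks of age, a line that comes from a polyoma middle T (PyMT) tumor of the mouse. The low burden lung was collected 1 week and the high burden lung 3 weeks after injection. Each group was 1 mouse and 1 library, and no lung without tumor cells was measured, so that burden, time after injection, animal and library cannot be told apart. No test across mice was possible, and every interval below covers counting error only.

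The EGFR ligands are made as membrane-anchored precursors, which metalloproteases, above all Adam17 with its iRhom partners Rhbdf1 and Rhbdf2, release from the cell surface. Amphiregulin (Areg) and transforming growth factor alpha (Tgfa) bind Egfr, and epiregulin (Ereg), heparin-binding EGF-like growth factor (Hbegf) and betacellulin (Btc) bind Egfr and Erbb4. Erbb2 has no known ligand and Erbb3 has little kinase activity of its own, so both signal in pairs with other receptors, largely through Ras and ERK. In the lung the family is known for its part in epithelial repair and in fibrosis.

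In the reference genome (GRCm38), 3 of the 5 ligand genes, Ereg (chr5:91074622-91093646), Areg (chr5:91139599-91148432) and Btc (chr5:91357261-91402994), lie with Epgn, the gene of a further EGFR ligand, in a cluster of 375.5 kb. Tgfa lies at chr6:86195223-86275719, Egfr at chr11:16752203-16918158, Erbb2 at chr11:98412470-98437716 and Erbb3 at chr10:128567523-128589652. The 250 bases before the start of Areg (chr5:91139349-91139598, plus strand, RefSeq, GRCm38.p6) are shown because most Areg UMIs lay in epithelial-like cells of the low burden lung and in metastatic-like cells of the high burden lung, and because the study was concerned with genes regulated by CREB. The capitals mark a full cAMP response element, TGACGTCA, the site that CREB reads, from 61 to 54 bases before the start.

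Areg: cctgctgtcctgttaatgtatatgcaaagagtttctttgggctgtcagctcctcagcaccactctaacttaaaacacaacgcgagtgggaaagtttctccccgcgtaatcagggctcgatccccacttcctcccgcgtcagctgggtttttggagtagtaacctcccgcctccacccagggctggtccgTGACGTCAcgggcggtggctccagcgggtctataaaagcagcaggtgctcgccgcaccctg

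On either strand, this element occurred in 508 of 32851 promoters of the same length (1.55%). Among the promoters of Areg, Btc, Tgfa, Egfr and Erbb2, that of Areg alone held it, and none of these 5 held the AP-1 element TGACTCA, which occurred in 4.46% of all promoters. A match of letters is a description and not a measurement of binding.

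After filtering, 2473 low burden and 3033 high burden cells remained, with medians of 4073 and 13998 UMIs (unique molecular identifiers, each counted as 1 captured RNA) per cell. The libraries shared 11 cell barcodes. Cells were placed in classes by gates on marker genes, none of which is a ligand or receptor described here, and the classes are called "-like" because they rest on those markers. Metastatic-like cells numbered 1393 at high burden and 0 of 2473 at low burden, where a share below 0.121% could have been missed. An alternative grouping by Leiden clusters placed 3 low burden cells in a metastatic cluster of 317 cells. From low to high burden, epithelial-like cells numbered 211 and 97, stromal-like cells 570 and 103, myeloid-like cells 534 and 826, and dendritic-like cells 106 and 92. Within the myeloid-like class, alveolar macrophage-like cells numbered 401 at low burden and 3 at high burden, and monocyte- or macrophage-like cells 124 and 817. Cells that passed gates of more than 1 compartment (309 and 256) or none (97 and 112) were kept out of the classes.

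Of the 6 metastatic markers that the gate did not use, 4 (Ccnd1, Lcn2, Spp1 and Cp) were at least 2-fold higher in metastatic-like cells than in the other high burden cells, and Krt18 and the PYMT transgene were not. PYMT stood at 64.9 CPM in metastatic-like cells, between 57.7 and 76.5 CPM in the 6 other high burden classes and at 0 in the low burden library, so it did not separate the tumor cells. Levels are given as CPM, the UMIs of a gene per 1000000 UMIs of all cells in a class and library, with the exact 95% Poisson interval in brackets. Because UMIs were counted at the 3′ end of transcripts, levels were compared between cells and not between genes.

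RNA from broken tumor cells can enter any droplet, and the 8 metastatic gate markers gave a rough measure of its amount. The gate itself limits this measure, since cells past the metastatic threshold were kept out of the other classes. The metastatic marker list was chosen with earlier results of these data known. The summed level of these markers was 1497 CPM in metastatic-like cells and between 119 and 142 CPM in each of the other high burden classes. The latter is 7.97% to 9.47% of the metastatic-like level, whereas PYMT, which no gate used, stood near its metastatic-like level in these classes. In the low burden library the summed marker level was between 5.83 and 66.7 CPM, highest in endothelial-like cells. In the high burden myeloid-like class all 8 markers were detected, whereas 6 of the 8 (Twist1, Shox2, Tfap2a, Col11a1, Sox9 and Gm12603) were at 0 in the low burden myeloid-like class. Levels as a share of the metastatic-like level are given below for high burden Areg, Hbegf, Fosl1 and Etv4 in several classes. The part of such RNA in any high burden result was not tested.

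The class that held most Areg UMIs differed between the lungs, and so did the makeup of the lungs. In the low burden lung 78 of 103 Areg UMIs (75.7%) lay in epithelial-like cells, whereas in the high burden lung 1090 of 1354 (80.5%) lay in metastatic-like cells. Over all genes, epithelial-like cells held 1714466 of 13283386 low burden UMIs. Metastatic-like cells held 33077232 of 51467856 high burden UMIs. The level in metastatic-like cells was 33.0 CPM (31.0 to 35.0), and 423 of 1393 cells (30.4%) held at least 1 Areg UMI. Epithelial-like cells of the same lung stood at 25.2 CPM (17.0 to 36.0), which overlaps this level, with a log2 ratio of 0.39 (-0.13 to 0.96) for metastatic-like over epithelial-like cells.

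In epithelial-like cells Areg was lower at high burden, at 25.2 CPM against 45.5 CPM (36.0 to 56.8) at low burden. On the log2 scale the ratio of high to low burden was -0.85 (-1.51 to -0.23), an interval that excludes 0, but it fell short of 2-fold. Without the epithelial-like cells that held a PYMT UMI the ratio was -0.37, whereas it passed 2-fold under 5 other settings, with -1.07 when no cells were filtered. Ciliated-like cells, the airway cells that move mucus, held 31 UMIs in 51 cells (91.4 CPM, 62.1 to 130) at low burden and 5 UMIs in 15 cells (24.9 CPM, 8.09 to 58.1) at high burden, a log2 ratio of -1.87 (-3.59 to -0.50). AT2-like cells, which make surfactant, stood at 60.7 CPM (42.3 to 84.4) and 44.7 CPM (25.0 to 73.7), and these intervals overlap. Club-like cells, the secretory cells of the airway, were at 16.5 CPM (8.24 to 29.5) and 17.3 CPM (8.27 to 31.7). AT1-like cells, the flat cells of gas exchange, held 1 Areg UMI at low and 0 at high burden. The difference was thus seen in ciliated-like cells, of which few were recovered at high burden, and was not detectable at this depth in AT2- or club-like cells.

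In myeloid-like cells Areg went the other way. It stood at 3 UMIs in 534 low burden cells (1.53 CPM, 0.32 to 4.49) and at 145 UMIs in 826 high burden cells (16.1 CPM, 13.6 to 18.9), a log2 ratio of 3.39 (1.82 to 5.69). All 145 UMIs lay in monocyte- or macrophage-like cells. Within these cells alone, 1 UMI in 124 low burden cells stood against 145 in 817 high burden cells, a log2 ratio of 3.00 (0.49 to 8.31), so the difference was also present without the alveolar macrophage-like cells. Their high burden level was 49.3% of the metastatic-like level, against 8.08% for the metastatic gate markers in the same cells. The gate limits that marker share, and PYMT, which no gate used, stood near its metastatic-like level in myeloid-like cells. Dendritic-like cells of the same library held 0 Areg UMIs among 732044, so that Areg was at least 3.96-fold higher in monocyte- or macrophage-like cells.

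Few of the monocyte- or macrophage-like cells carried Areg. It was found in 54 of 817 cells (6.61%), of which 32 held 1 UMI each, and the 5 highest cells held 44 of the 145 UMIs, with 16 in the highest. At a common depth of 3000 UMIs per cell the share was 2.33%, against 8.11% of metastatic-like cells and 0 of 92 dendritic-like cells. The metastatic gate markers stood at 111 CPM in cells with Areg and 122 CPM in those without. Depth was similar (medians of 11194.5 and 10214 UMIs). Cells past the metastatic gate had been left out of both groups, which limits this comparison, and the source of the Areg RNA was not tested. Macrophage genes went in both directions. Arg1, an arginase gene, was at 108 CPM in cells with Areg and 86.3 CPM in cells without. Fn1 (789 and 784 CPM) and Trem2 (347 and 335 CPM) were close. Lower in cells with Areg were Apoe, a lipid carrier of tissue macrophages (4273 and 6241 CPM), Cd68 (369 and 429 CPM), Mrc1 (100 and 118 CPM) and Plac8 (61.7 and 65.5 CPM). These cells were grouped by their Areg count within 1 mouse, and the values are a description.

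Areg UMIs were few in the remaining normal classes. At low burden there were 0 UMIs in stromal-, endothelial- and lymphocyte-like cells and 1 in dendritic-like cells. At high burden stromal-like cells held 5 UMIs (3.99 CPM, 1.30 to 9.31), or 12.1% of the metastatic-like level, and endothelial-like cells 2 UMIs (1.70 CPM, 0.21 to 6.13), or 5.15%, and both intervals include the share of the metastatic gate markers. T cell-like cells held 0 UMIs in 138 low burden cells and 9 UMIs in 3 of 34 high burden cells, 6 of them in 1 cell. This high burden level was 29.4 CPM (13.4 to 55.7), or 89.1% of the metastatic-like level, with an interval that includes the levels of metastatic-, epithelial- and monocyte- or macrophage-like cells.

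**Figure D1:**
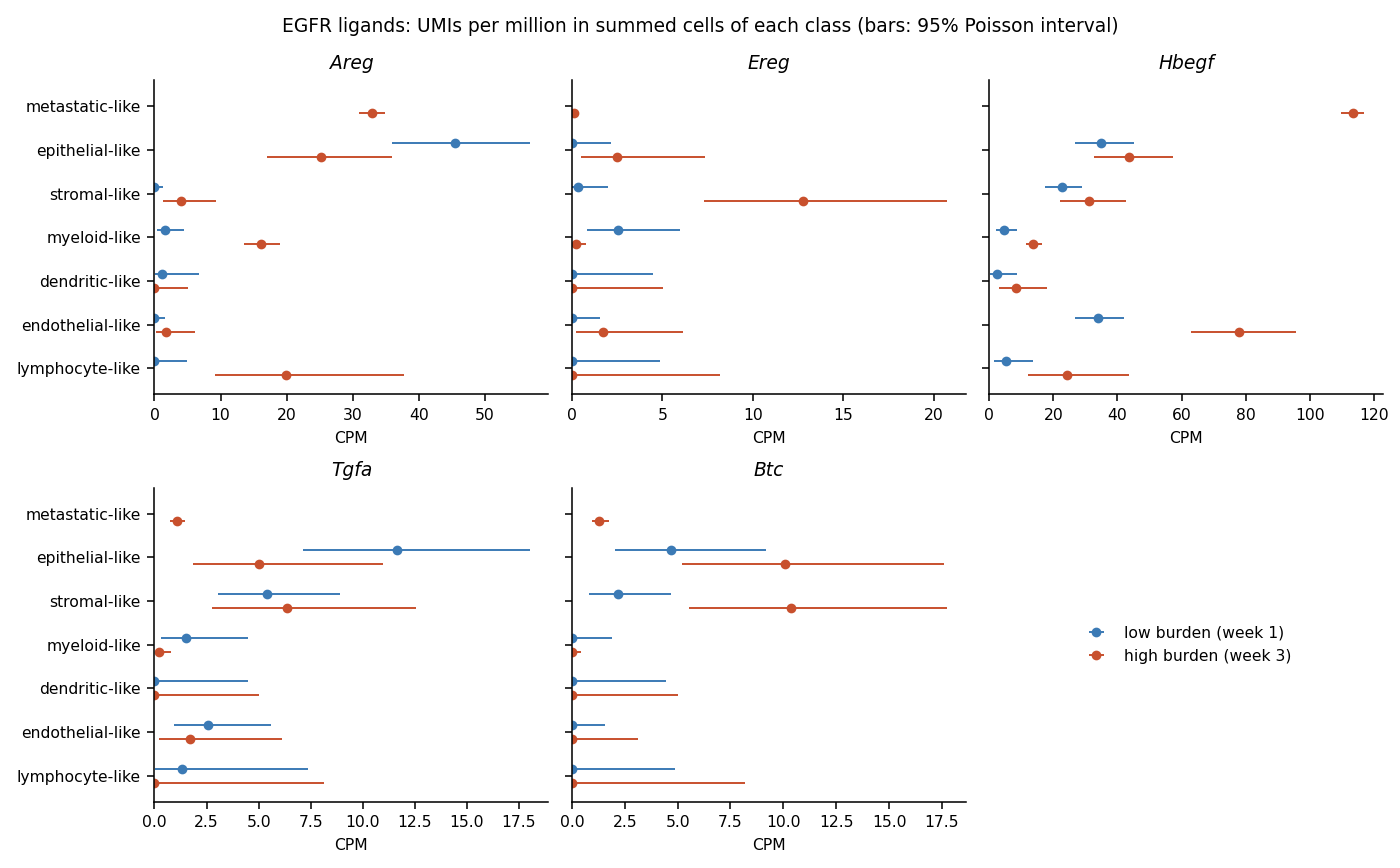
Level of each of the 5 ligands by class, with CPM on the horizontal axis, low burden in blue and high burden in orange. Each point is a sum over the cells of a class in 1 library and each bar an exact 95% Poisson interval. Areg stood at 45.5 CPM in low burden epithelial-like cells, and at 33.0, 25.2 and 16.1 CPM in high burden metastatic-, epithelial- and myeloid-like cells.

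Hbegf had the most UMIs of the ligands in the high burden lung, 3752 of 4394 (85.4%) in metastatic-like cells at 113 CPM (110 to 117). It was found in 978 of these 1393 cells (70.2%), and at 3000 UMIs per cell in 23.8%. AT1-like cells stood above that level in both lungs, at 286 CPM (200 to 396) from 36 UMIs in 32 low burden cells and 397 CPM (249 to 601) from 22 UMIs in 9 high burden cells. The AT1-like levels of the lungs did not differ beyond their counting intervals, with a log2 ratio of 0.47 (-0.36 to 1.28).

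Among other normal cells, endothelial-like cells rose from 33.8 CPM (26.7 to 42.1) to 78.1 CPM (62.9 to 95.7), a log2 ratio of 1.21 (0.76 to 1.66). This high burden level was 68.8% of the metastatic-like level, against 9.47% for the metastatic gate markers in the same cells, a share that the gate limits. Smooth muscle- or pericyte-like cells, the contractile cells of vessels and airways, carried Hbegf in both lungs, at 89.9 CPM (63.9 to 123) and 77.1 CPM (44.1 to 125), the latter 68.0% of the metastatic-like level. Fibroblast-like cells were lower, at 10.9 CPM (6.99 to 16.2) and 10.3 CPM (2.80 to 26.3). AT2-like cells stood at 12.1 CPM (4.88 to 25.0) and 32.7 CPM (16.3 to 58.6), a log2 ratio of 1.43 (-0.07 to 3.04) that includes 0, with a high burden level at 28.9% of the metastatic-like one. Over the whole epithelial-like class the log2 ratio was 0.32 (-0.25 to 0.88), with a high burden level at 38.5% of the metastatic-like level. Over the stromal-like class it was 0.45 (-0.16 to 1.05), with 27.4%. The high burden Hbegf level of B cell-like cells, used as a background, rests on few UMIs and lay above the AT2- and stromal-like levels. With the B cell-like level subtracted, the log2 ratios were -2.15 in epithelial-like and -3.25 in stromal-like cells.

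In myeloid-like cells Hbegf stood at 9 UMIs (4.60 CPM, 2.11 to 8.74) and 123 UMIs (13.7 CPM, 11.4 to 16.3), a log2 ratio of 1.57 (0.60 to 2.73). The ratio was 0.69, short of 2-fold, with the gate threshold doubled, and -3.79 when the level in B cell-like cells, 5 UMIs in 22 high burden cells, was subtracted. Within monocyte- or macrophage-like cells the ratio was 1.15 (-0.43 to 3.45). Their high burden level was 12.0% of the metastatic-like level, against 8.08% for the metastatic gate markers and 49.3% for Areg in the same cells. At 3000 UMIs per cell Hbegf was found in 4.04% of monocyte- or macrophage-like and 4.35% of dendritic-like cells, and the dendritic-like level of 8.20 CPM (3.01 to 17.8) was 7.23% of the metastatic-like level.

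**Figure D2:**
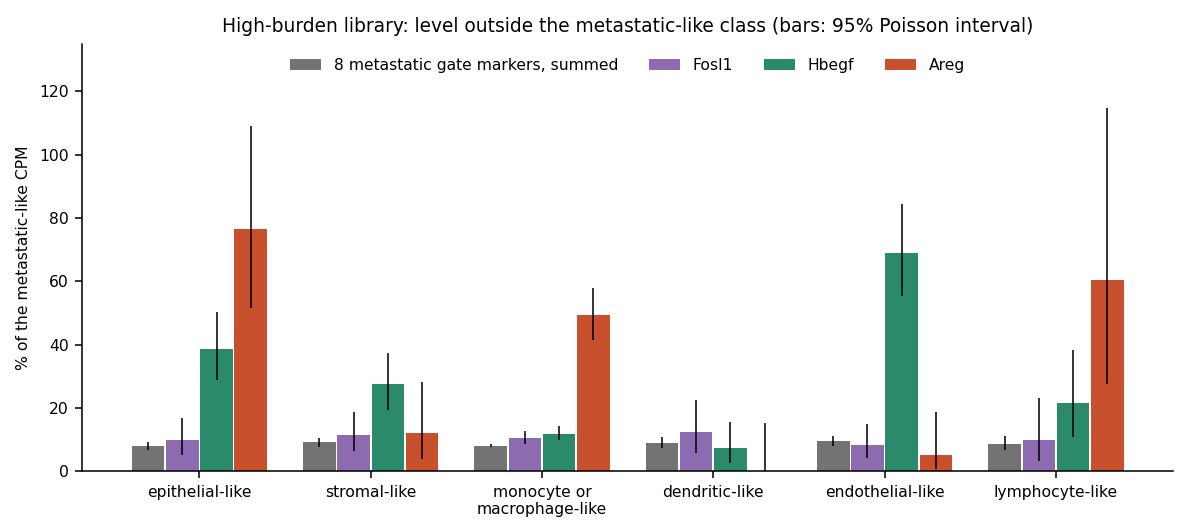
Level in the other classes of the high burden library as a percentage of the metastatic-like CPM, for the 8 metastatic gate markers summed, Fosl1, Hbegf and Areg. Bars carry exact 95% Poisson intervals. Areg reached 49.3% in monocyte- or macrophage-like cells and 76.4% in epithelial-like cells, and Hbegf 68.8% in endothelial-like cells. The gate markers lay between 7.97% and 9.47%, and cells past the metastatic gate were left out of these classes.

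Ereg was rare and came from other cells. The low burden lung held 6 Ereg UMIs, 5 of them in myeloid-like cells, and the high burden lung held 45. Of these 45, 16 lay in stromal-like cells (12.8 CPM, 7.30 to 20.7), 18 in cells that passed no gate and 4 in the 1393 metastatic-like cells (0.12 CPM, 0.03 to 0.31). Stromal-like cells of the low burden lung held 1 UMI in 570 cells, which gave a log2 ratio of 5.15 (2.46 to 10.54). The 16 stromal UMIs came from 7 cells, and 7 of them from 1 fibroblast-like cell. The 18 UMIs outside the gates came from 4 cells, all among the 16 ungated high burden cells that held 5 or more UMIs of the collagen gene Col1a1, and no ungated low burden cell held as many. The cell with the most Ereg, 10 UMIs, held 30 UMIs of Col1a1 and 0 of the metastatic marker Hmga2. Ereg was therefore seen in a few collagen-expressing cells of the high burden lung and hardly in the metastatic-like cells.

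Tgfa and Btc were low in all classes. Tgfa stood at 11.7 CPM (7.13 to 18.0) in low burden and 5.04 CPM in high burden epithelial-like cells, a log2 ratio of -1.21 (-2.82 to 0.16) from 20 and 6 UMIs. In stromal-like cells it was at 5.41 and 6.38 CPM, and in metastatic-like cells at 1.06 CPM (0.74 to 1.47). Within the epithelial-like class Btc lay mainly in club-like cells, with 6 of 8 UMIs at low burden (9.00 CPM, 3.30 to 19.6) and 10 of 12 at high burden (17.3 CPM, 8.27 to 31.7). Smooth muscle- or pericyte-like cells at low burden (11.5 CPM, 3.74 to 26.9) and mesothelial-like cells at high burden (18.3 CPM, 9.44 to 31.9) stood at similar levels, with intervals that overlap those of club-like cells. In the stromal-like class Btc rose from 2.16 CPM (6 UMIs) to 10.4 CPM (13 UMIs), a log2 ratio of 2.26 (0.77 to 3.94). Of the 13 UMIs, 12 lay in mesothelial-like cells, the lining of the lung surface, which were 35 of 103 stromal-like cells at high burden and 19 of 570 at low burden. With the makeup of the class held as in the low burden library, an alternative chosen after seeing the data, the log2 ratio was 0.45. Btc stood at 1.30 CPM (0.94 to 1.75) in metastatic-like cells and at 0 in myeloid- and dendritic-like cells of both lungs.

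The receptors were found mainly in epithelium and stroma. Egfr, to which all 5 ligands bind, was highest in AT1-like cells, at 103 CPM (55.0 to 177) and 72.1 CPM (19.7 to 185). Mesothelial-like cells stood at 35.9 CPM (11.7 to 83.9) and 33.5 CPM (21.0 to 50.7), and fibroblast-like cells at 28.6 CPM (22.0 to 36.6) and 23.1 CPM (10.6 to 43.9). The levels of these neighbors in the order overlapped. Over the stromal-like class Egfr was at 25.2 CPM (19.7 to 31.9) and 27.9 CPM (19.5 to 38.8), and the interval of this log2 ratio of 0.15 (-0.48 to 0.75) excludes 2-fold in either direction. Over the epithelial-like class it was at 15.7 CPM (10.4 to 22.9) and 10.9 CPM (5.81 to 18.7), a log2 ratio of -0.53 (-1.61 to 0.48). In metastatic-like cells Egfr stood at 2.72 CPM (2.19 to 3.34), 4.01-fold lower than in epithelial-like cells of the same lung and, at a log2 ratio of -3.36 (-3.94 to -2.75), 10.3-fold lower than in stromal-like cells. High burden myeloid-, dendritic- and endothelial-like cells held 8, 1 and 1 Egfr UMIs.

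Erbb2, the partner receptor, was spread more widely. Epithelial-like cells stood at 20.4 and 21.8 CPM, a log2 ratio of 0.10 (-0.69 to 0.87), and endothelial-like cells at 12.8 CPM (8.65 to 18.3) and 13.6 CPM (7.76 to 22.0). Neither pair differed beyond counting error. In stromal-like cells 25 UMIs (9.01 CPM) at low burden stood against 5 UMIs (3.99 CPM) at high burden, a log2 ratio of -1.18 (-2.92 to 0.24). Metastatic-like cells stood at 7.38 CPM (6.48 to 8.36), with a log2 ratio of -1.57 (-2.15 to -0.92) against epithelial-like cells.

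Erbb3 was epithelial, at 29.7 CPM (22.1 to 39.1) and 18.5 CPM (11.6 to 28.0), a log2 ratio of -0.69 (-1.48 to 0.06). AT2-like cells led at low burden with 38.1 CPM (23.9 to 57.7) and stood at 17.9 CPM (6.56 to 38.9) at high burden, and these intervals overlap. In the 1393 metastatic-like cells 5 Erbb3 UMIs were found (0.15 CPM, 0.05 to 0.35), a log2 ratio of -6.93 (-8.69 to -5.50) against epithelial-like cells of the same lung. The metastatic-like cells thus held Areg and Hbegf RNA with less Egfr, Erbb2 and Erbb3 RNA than normal epithelial-like cells.

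**Figure D3:**
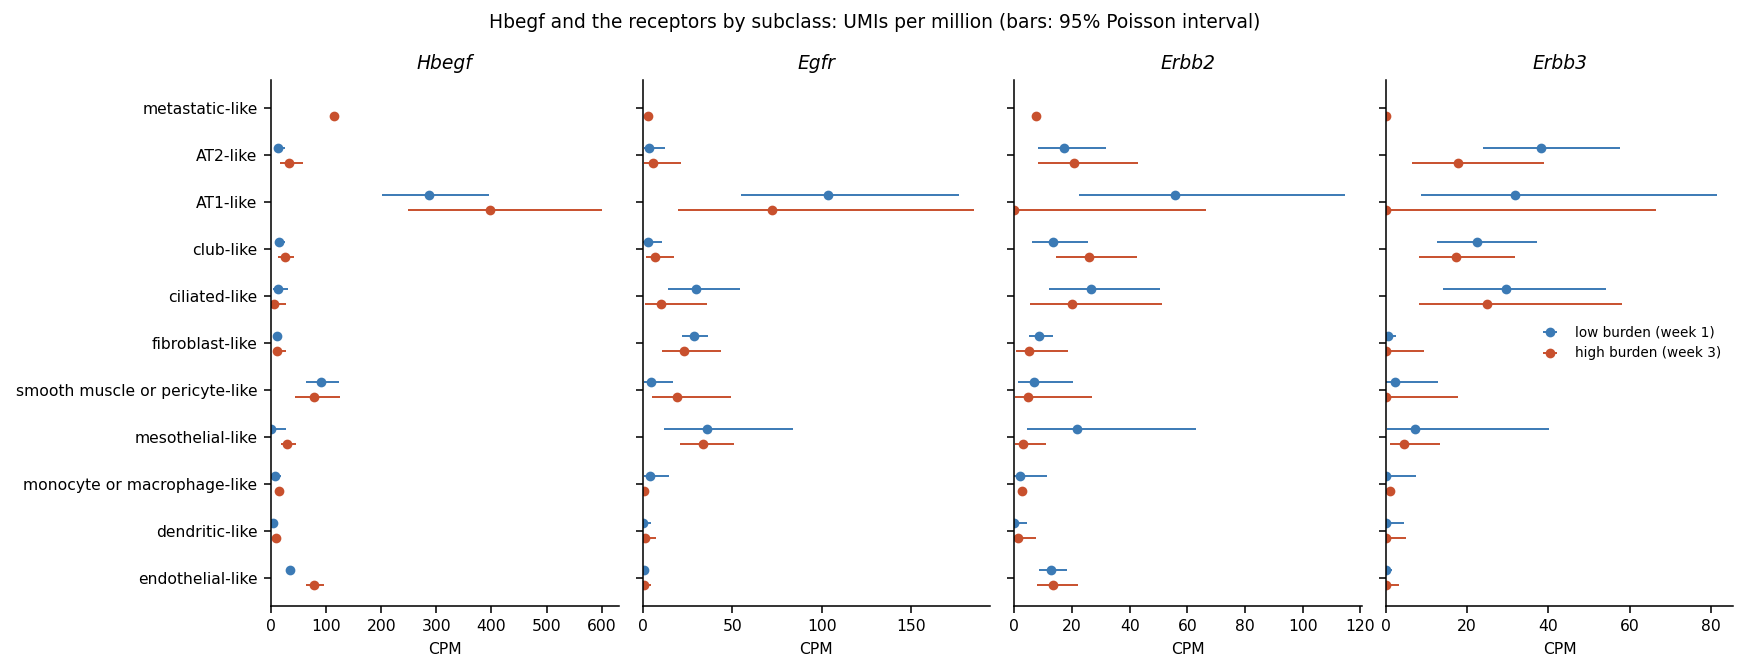
Level of Hbegf and of the receptors Egfr, Erbb2 and Erbb3 by subclass, with CPM on the horizontal axis, low burden in blue, high burden in orange and exact 95% Poisson intervals as bars. AT1-like cells were highest for Hbegf (286 and 397 CPM) and Egfr (103 and 72.1 CPM), and Erbb3 stood at 0.15 CPM in metastatic-like cells.

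A gene was called when the lungs differed by 2-fold or more with at least 10 UMIs over both. In the epithelial-like class 7 of the 8 members had enough UMIs, and Btc was called higher and Tgfa lower at high burden, where 5.52% of all genes tested were called higher and 9.84% lower. In the stromal-like class 6 members had enough, and Ereg and Btc were called higher and Erbb2 lower, against 9.9% and 16% of all genes. In the myeloid-like class 5 had enough, and Areg, Hbegf, Erbb2 and Erbb3 were called higher and Egfr lower, against 12.4% and 18.7% of all genes. Of these 10 calls, the counting intervals of 4 excluded 0, namely Ereg and Btc in stromal-like and Areg and Hbegf in myeloid-like cells. In the dendritic-like class, where 8.32% and 9.69% of all genes were called, 0 members had enough UMIs, so differences were not detectable at this depth. Without the normal cells that held PYMT UMIs, called members numbered 1 in the epithelial-like (Tgfa), 0 in the stromal-like and 2 in the myeloid-like class (Areg and Hbegf). At 3000 UMIs per cell they numbered 1 (Egfr, lower), 0 and 2 (Areg and Hbegf). In both settings Ereg and Btc in stromal-like and Egfr, Erbb2 and Erbb3 in myeloid-like cells fell below 10 UMIs and could not be called. So did Btc and Tgfa in epithelial-like cells at 3000 UMIs.

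**Figure D4:**
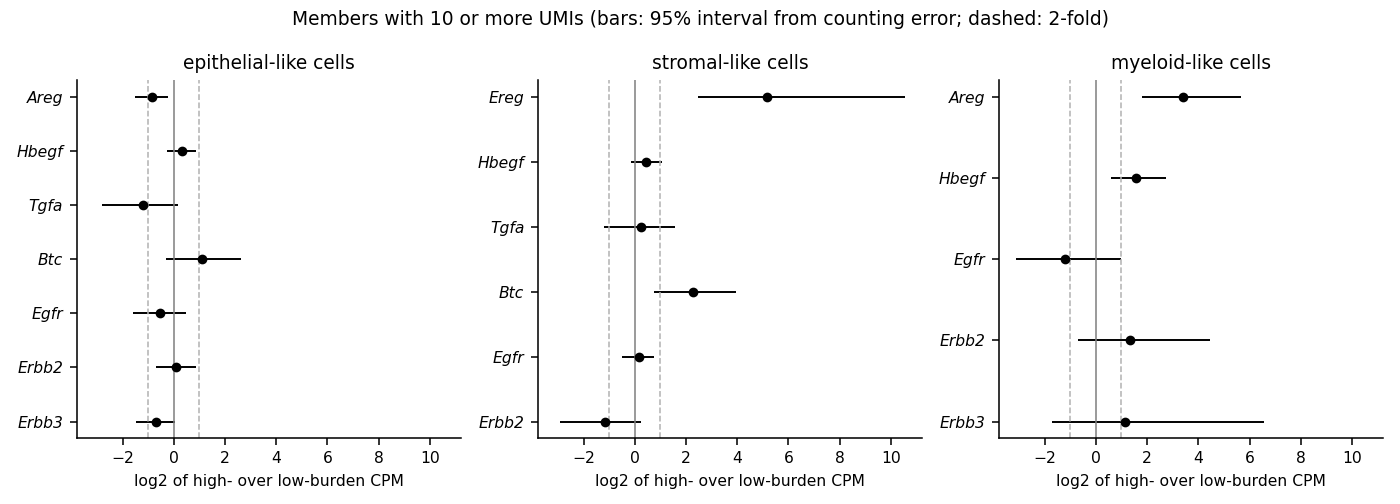
Log2 ratio of high over low burden CPM for members with 10 or more UMIs in epithelial-, stromal- and myeloid-like cells, with 95% intervals for counting error as bars and dashed lines at 2-fold. Areg lay below 0 in epithelial-like cells (-0.85) and above 0 in myeloid-like cells (3.39).

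Metastatic-like cells were also set against the 1566 high burden cells that did not pass the metastatic gate, ungated cells included. All 8 members had enough UMIs. Areg (33.0 against 13.2 CPM, log2 ratio 1.32) and Hbegf (113 against 29.7 CPM, 1.93) were called higher, where 12.9% of all genes were. Ereg (0.12 against 2.43 CPM, -4.33) and Erbb3 (0.15 against 2.49 CPM, -4.04) were called lower, where 26.6% of all genes were. Egfr (-0.71), Tgfa (-0.43), Btc (-0.30) and Erbb2 (0.45) lay within 2-fold. With the gate threshold doubled, Areg (0.99) and Hbegf (0.87) fell just short of 2-fold. That setting set 577 metastatic-like cells against 2456 others, so cells of the main metastatic-like class lay on both sides.

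Both ligands were unevenly spread over the metastatic-like cells. The 140 cells with the most Areg held 67.3% of its UMIs, with 32 in the highest cell, and 970 cells held none. For Hbegf the 140 highest cells held 44.3%, with 76 in the highest, and 415 cells held none. The same share was 68.4% for Erbb2 and 100% for Egfr, which had fewer UMIs, so at low counts this share does not measure unevenness. At 3000 UMIs per cell the variance over the mean, which is 1 for pure counting error, was 1.19 for Areg and 1.51 for Hbegf. It was 1.12 for Egfr and 0.97 for Erbb2. At 10000 UMIs per cell Hbegf was found in 59.8% (53.4 to 66.0) of 244 cells with Areg and in 50.0% (47.0 to 53.1) of cells without, and at 3000 UMIs the shares were 24.8% and 23.7%, so a difference was seen at the greater depth only.

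Genes that act before and after the receptors were read from fixed lists, first in metastatic-like against the other high burden cells. Of 9 feedback inhibitors, which limit signaling from active receptors, 5 were called higher and 0 lower, with a median log2 ratio of 1.24 against -0.02 over all genes tested, of which 12.9% were called higher and 26.6% lower. They were Spry2 (37.5 against 6.76 CPM, 2.47) and Spry1 (41.1 against 15.8 CPM, 1.37), which restrain Ras and ERK signaling, Lrig1 (48.3 against 8.84 CPM, 2.45), which promotes receptor degradation, Socs5 (37.6 against 11.8 CPM, 1.67) and Errfi1 (108 against 45.9 CPM, 1.24), which blocks the Egfr kinase. Of the other cells, 817 were monocyte- or macrophage-like. In high burden epithelial- and stromal-like cells each of the 5 was below its metastatic-like level, such as Errfi1 (63.8 and 88.6 CPM). In the low burden lung Errfi1 (100 and 159 CPM) and Spry1 (46.1 and 67.8 CPM) stood near or above that level in these classes. Spry2 did so in epithelial-like cells (42.0 CPM), and Lrig1 and Socs5 did not. Of 10 genes induced by ERK, 3 were called higher and 0 lower, with a median of 0.41, beside the same 12.9% and 26.6% of all genes. These were Fosl1 (111 against 13.8 CPM, 3.01), Etv4 (38.7 against 6.76 CPM, 2.52) and Phlda1 (897 against 229 CPM, 1.97), whereas Dusp6 (0.77), Egr1 (0.10) and Spred1 (-0.01) lay within 2-fold.

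Of the 5 other ligands with enough UMIs, Epgn, the chromosome 5 neighbor of Ereg and Areg, was called higher (3.90 against 0.30 CPM, 3.72) and Nrg4, a ligand of Erbb4, lower from 1 and 9 UMIs (-4.14). Nrg1, a ligand of Erbb3, was at 7.53 against 3.92 CPM (0.94). The proteases Adam10 (-0.22) and Adam17 (-0.14) lay within 2-fold, and of the iRhoms Rhbdf2 was lower (7.89 against 18.3 CPM, -1.22) and Rhbdf1 was not called (0.87). None of the 14 transducers from Grb2 to Mapk3 was called, where 12.9% of all genes were called higher and 26.6% lower. Erbb4 was seen as 1 UMI.

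**Figure D5:**
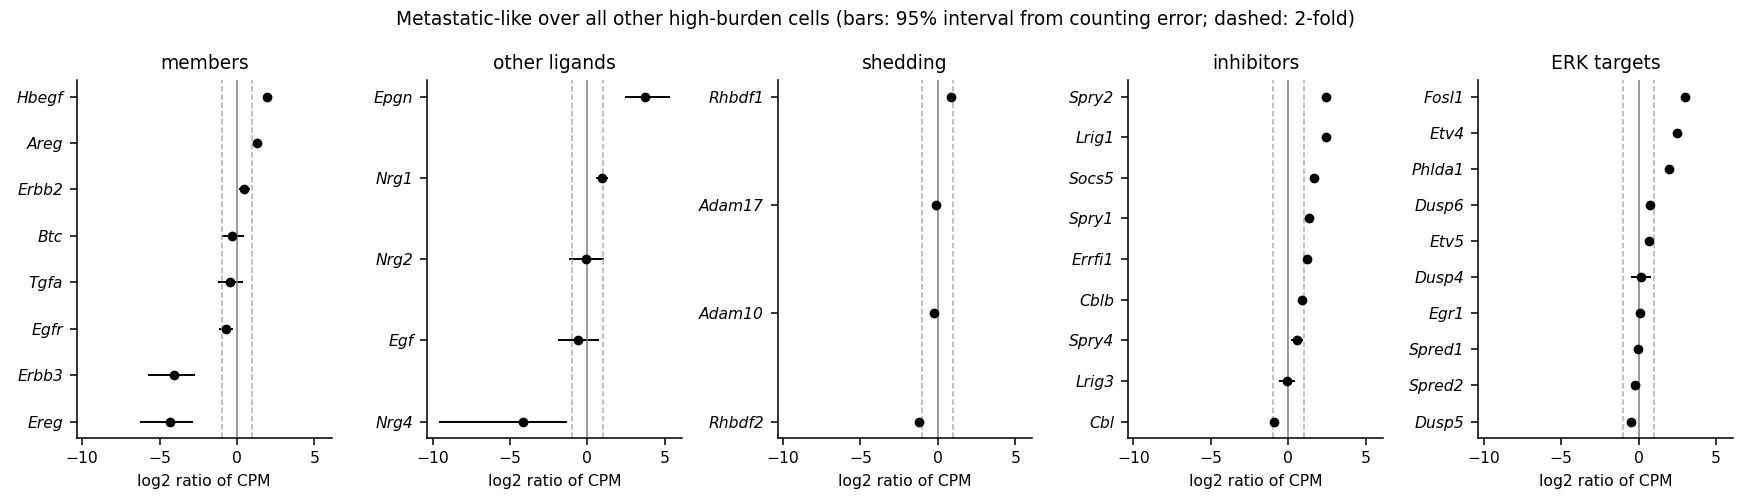
Log2 ratio of CPM in metastatic-like over other high burden cells for members, other ligands, release machinery, feedback inhibitors and ERK-induced genes with 10 or more UMIs, with 95% intervals for counting error as bars and dashed lines at 2-fold. Areg (1.32) and Hbegf (1.93) lay above 2-fold, as did Fosl1 (3.01), Etv4 (2.52), Spry2 (2.47) and Lrig1 (2.45), and Ereg (-4.33) and Erbb3 (-4.04) below.

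Between the lungs, genes of these lists were called in both directions in epithelial- and stromal-like cells. Of all genes tested, 5.52% were called higher and 9.84% lower in epithelial-like cells, and 9.9% and 16% in stromal-like cells. In epithelial-like cells Lrig1 (9.92 to 26.0 CPM, 1.39, beside 48.3 CPM in metastatic-like cells) and Cblb (5.83 to 13.4 CPM) were called higher and Spry2 lower (42.0 to 18.5 CPM, -1.18), with a median of -0.14 over 8 inhibitors. In stromal-like cells Spry1 was lower (67.8 to 25.5 CPM, -1.41) and Dusp5, an ERK-induced phosphatase, higher (16.6 to 47.1 CPM, 1.51), and of the ligands Nrg1 was called higher (5 UMIs at low and 6 at high burden) and Nrg2 lower (9 and 1), with intervals that span 0. None of the 14 transducers was called in either class. The calls of Fosl1 and Etv4 are given below.

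In myeloid-like cells, where 12.4% of all genes were called higher and 18.7% lower, the lists moved in both directions. Of 14 transducers 5 were called lower and 0 higher, among them Mapk3 (324 to 78.4 CPM, -2.05), together with Dusp5 (142 to 24.4 CPM, -2.54) and Adam17, the main releasing protease of Areg (95.2 to 40.5 CPM, -1.23). The ligand Nrg4 was lower as well (40 UMIs at low and 6 at high burden, -4.94). Called higher were the inhibitors Errfi1 (15.9 to 33.2 CPM, 1.07) and Lrig1 (1 and 56 UMIs), the ERK-induced gene Etv5 (11.8 to 27.1 CPM) and the ligand Nrg1 (1 and 32 UMIs, 2.80), and the inhibitors Lrig3 and Cblb were called lower. Within monocyte- or macrophage-like cells Dusp5 remained lower (130 to 24.2 CPM, -2.43), while Mapk3 (-0.98) and Adam17 (69.3 to 40.8 CPM, -0.76) lay within 2-fold. The kinase Braf (-1.22) was lower within these cells as well. Phlda1 was higher there (69.3 to 213 CPM, 1.62), and Errfi1 (24.4 to 33.1 CPM, 0.44), Etv5 (24.4 to 27.2 CPM, 0.16) and Nrg1 (0.82) lay within 2-fold.

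Fosl1 was called higher at high burden in the epithelial-, stromal-, myeloid- and dendritic-like classes, from at most 1 low burden UMI in each. Its high burden level was 9.84%, 11.5%, 10.5% and 12.3% of the metastatic-like level in these classes, beside 7.97% to 9.47% for the metastatic gate markers. Etv4, called higher in stromal- and myeloid-like cells from 0 low burden UMIs, stood at 33.0% and 11.8%.

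The 3 genes whose level was most like that of each member were found by Pearson's r of log2(CPM + 10) over 23 sums of at least 20 cells of a subclass in 1 library. These points share 2 libraries, and r is given as a description. For Areg they were Irx5 (0.90), Ank3 and Irx3, for Ereg Mdk (0.79), Cyp7b1 and Nnmt, and for Hbegf Ttll7 (0.88), 2200002D01Rik and Tspan15. For Tgfa they were Tmc4 (0.85), Pigg and Slc44a3, and for Btc Thsd4 (0.79), Gsta4 and Lypd2. For the receptors they were Osbpl5 (0.86), Efemp1 and Chadl with Egfr, Gm13056 (0.92), Mecom and Mtcl1 with Erbb2, and Foxa2 (0.96), Fgf1 and Prss8 with Erbb3.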

How the data were processed

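Dissociated lungs of 2 mice, 1 for low and 1 for high metastatic burden by the labels, gave 1 library each. The deposited values are UMI counts per gene and cell that the authors made with Cell Ranger 2.0.2 on mm10 with the PYMT sequence appended. The study's methods also name an aggregation of both libraries, and whether the counts precede it is not stated. At low burden 2668 cells with 14041471 UMIs were deposited, and at high burden 3121 cells with 52723173 UMIs. As in the study, cells with 1000 to 7000 genes and at most 10% mitochondrial UMIs were kept.

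Each cell was scored per cell type by the mean of log(1 + UMIs per 10000) over gate markers, with thresholds between 0.35 and 1.5 set after the scores were seen. Cells passing gates of more than 1 compartment were left out, which also served for doublets, since no doublet caller was run. UMIs were summed by class and library and scaled to CPM, with exact Poisson intervals, exact conditional binomial intervals for ratios and exact binomial intervals for shares, at 95%. A gene was called at 2-fold or more with 10 UMIs over both sides. A level of 0 was read against a floor of 3 counts per class. Cells were thinned to 3000 or 10000 UMIs for shares, and 607 low burden cells under 3000 were left out there. The 8 members and any of 44 other genes of the pathway, listed by role, could be named, with the 3 genes most like each member. The members and lists were chosen with earlier results of these data known. Scripts ran in Python 3.11.15 (numpy 2.4.6, scipy 1.17.1, pandas 2.3.3) and were tested on simulated data. Alternatives covered the cell filter, gates, clustering, mixed cells, scaling, cell weights, depth, free RNA, single cells, PYMT and the count minimum.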

Additional observations from a re-analysis of the deposited data

Results flagged for a closer look

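Areg had opposite signs in 2 classes under the same contrast of high over low burden, with a log2 ratio of 3.39 in myeloid-like and -0.85 in epithelial-like cells. The difference between the classes was not tested, since each lung was 1 mouse.

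High burden cells that passed no gate, which entered no class, held 3 of the ligands at levels whose counting intervals lay above those of ungated low burden cells. Areg stood at 19.3 CPM from 22 UMIs, 13 of them in 1 cell, Ereg at 15.8 CPM from 18 UMIs in 4 cells, and Hbegf at 44.9 CPM from 51 UMIs. Ungated low burden cells held 0, 0 and 2 UMIs of these genes.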

How the results depend on the processing

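No paired analysis was possible because each group was 1 library. Over 327 ratios recomputed for members under alternatives, 303 kept their direction. This count includes 22 ratios at a minimum of 20 UMIs and 26 with no minimum, which equal the main ratios by construction. Subtraction of a B cell level of 0 also left ratios unchanged. Areg kept its direction under all its alternatives, with ranges of -1.07 to -0.37 in epithelial-like, 2.40 to 3.83 in myeloid-like and 0.99 to 1.45 in metastatic-like cells. It was called lower in epithelial-like cells without a cell filter, with the gate doubled or halved, by Leiden clusters and with mixed cells kept. The number of called members was less stable. For epithelial-like cells, 2 members were called, against 1 when thinned to 3000 UMIs, without normal cells holding a PYMT UMI, and with the subclass makeup held (added after seeing the data), and 3 without a cell filter, with the gate doubled, by Leiden clusters, by mean CPM per cell and with the B cell level subtracted. For stromal-like cells, 3 were called, against 2 without a cell filter and 0 when thinned or without PYMT cells. The count was 1 with the gate threshold doubled, with it halved, at a minimum of 20 UMIs and with the makeup held. It was 4 by Leiden clusters, with the B cell level subtracted and with no minimum. For myeloid-like cells, 5 were called. There were 4 without a cell filter, with mixed cells kept, by median-of-ratios scaling, by mean CPM per cell, or with B cell subtraction. They numbered 3 with the gate doubled, by Leiden clusters, without the cell with the most UMIs, at 20 UMIs and with the makeup held. They numbered 2 with the gate halved, when thinned and without PYMT cells, and 6 with no minimum. For dendritic-like cells, 0 were called, against 1 (Hbegf) by Leiden clusters, with mixed cells kept and with no minimum. For metastatic-like cells, 4 were called, against 2 with the gate doubled, 5 with it halved and 3 when thinned. The ratio of Hbegf in myeloid-like cells reversed to -3.79 when the B cell level was subtracted, which rests on 5 UMIs in 22 cells, and that of Erbb2 to -0.21 by Leiden clusters. The same subtraction turned Hbegf, not called in either class, from 0.45 to -3.25 in stromal-like and from 0.32 to -2.15 in epithelial-like cells. It also moved Egfr, likewise not called, from -0.53 to 0.93 in epithelial-like and from 0.15 to 0.88 in stromal-like cells. The causes of the other changes were not tested. Ligands and receptors at a few UMIs per class, and subclasses of few cells, set the limit of depth here.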
